A study of Rattus norvegicus with 6 samples.

Results

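Ubiquitin E2 enzymes and F-box proteins were followed in c-kit+ bone marrow cells of ACI rats given phenylhydrazine (PHZ) or phosphate-buffered saline (PBS). Members were the genes of the authors' comparison table whose symbol begins with Ube2 and a letter, or with Fbxl, Fbxo or Fbxw and a digit, leaving out Ube2t. This gave 83 of 17172 genes, 29 E2 genes and 54 F-box genes (16 Fbxl, 31 Fbxo and 7 Fbxw). PHZ, a compound that destroys red cells and provokes haemolytic anaemia, was injected into the peritoneum at 100 mg/kg in 3 rats, and 3 rats received an equal amount of PBS by the same route. The rats were of the inbred ACI strain, aged 6 to 8 weeks, with 2 animals labelled female and 1 labelled male in each group, and were killed 36 h after injection. Marrow cells of the hind legs were enriched with an antibody against c-kit, a growth factor receptor of blood progenitors, and each rat gave 1 poly(A) RNA library.

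Ubiquitin is passed from an E1 activating enzyme to an E2 conjugating enzyme, and an E3 ligase then directs the transfer from the E2 to a chosen protein. F-box proteins are the exchangeable substrate receptors of the SCF ligases, which are built on the scaffold Cul1 and the adaptor Skp1, with WD40 repeats in the Fbxw, leucine-rich repeats in the Fbxl and other folds in the Fbxo proteins. A further large ligase, the anaphase-promoting complex (APC/C), drives mitotic exit with its own E2 enzymes. Maturing erythroid cells are known to clear much of their protein content through the ubiquitin and proteasome system.

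The libraries held 13196249 to 19492793 expected counts, and 13547 genes passed the expression filter. Transcripts of the Y-linked gene Eif2s3y went against the sex label in 3 libraries: PBS replicate 1, labelled female, had 58.3 CPM (counts scaled to equal library totals), PHZ replicate 3, labelled female, had 56.0 CPM, and PBS replicate 2, labelled male, had 0 counts, where up to 3 counts remain possible. PBS replicate 1 also stood apart in the 5 stromal and endothelial markers, whose CPM summed to 538 against 72.4 and 76.0 in the other PBS libraries and 29.8 to 43.0 in PHZ. Kit averaged 56.8 ± 6.32 CPM over PBS rats and 53.5 ± 18.9 CPM over PHZ rats (SD, n = 3). Cd34 was low in all libraries and did not pass the filter. It had 0.547, 0.699 and 0.721 CPM in PBS and 0.142, 0.312 and 0.0766 CPM in PHZ rats, without overlap. The PHZ values were close to the level of 3 counts in a library (0.154 to 0.227 CPM).

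Of the 83 genes, 69 passed the filter, 27 of the E2 and 42 of the F-box genes. The 14 that did not pass were Ube2d4, Ube2ql1, Fbxl13, Fbxl16, Fbxl21, Fbxl22, Fbxo2, Fbxo16, Fbxo17, Fbxo39, Fbxo41, Fbxo43, Fbxo44 and Fbxo48. None of them reached 1 CPM in a library, the highest value being 0.911 CPM for Fbxl21. Ube2o and Fbxw7, which have known roles in red cell maturation and in cyclin E turnover, are not analysed here.

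Per transcript length, E2 enzymes were the most abundant members. By the authors' FPKM values (fragments scaled to transcript length and library total) the order over all 6 libraries began with Ube2c, Ube2s, Ube2v1, Ube2d3 and Ube2r2. In PBS rats, Ube2c stood at 197 ± 13.6, Ube2d3 at 192 ± 16.0, Ube2s at 191 ± 11.6, Ube2r2 at 159 ± 4.36 and Ube2v1 at 137 ± 14.4 FPKM (SD, n = 3). The first 3 of these levels lay within 1 SD of each other. In PHZ rats Ube2c led with 386 ± 88.6 FPKM, followed by Ube2s with 345 ± 72.0 and Ube2v1 with 253 ± 35.8 FPKM, and the SDs of Ube2c and Ube2s overlapped. The most abundant F-box transcript was Fbxo7, ranked 8 among the members, with 57.6 ± 3.75 FPKM in PBS and 82.8 ± 12.1 FPKM in PHZ. Fbxo5 was next among F-box genes at rank 11, with 48.8 ± 7.03 and 70.7 ± 12.3 FPKM. The plot of FPKM in PHZ against PBS shows all tested members on this scale.

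**Figure D1:**
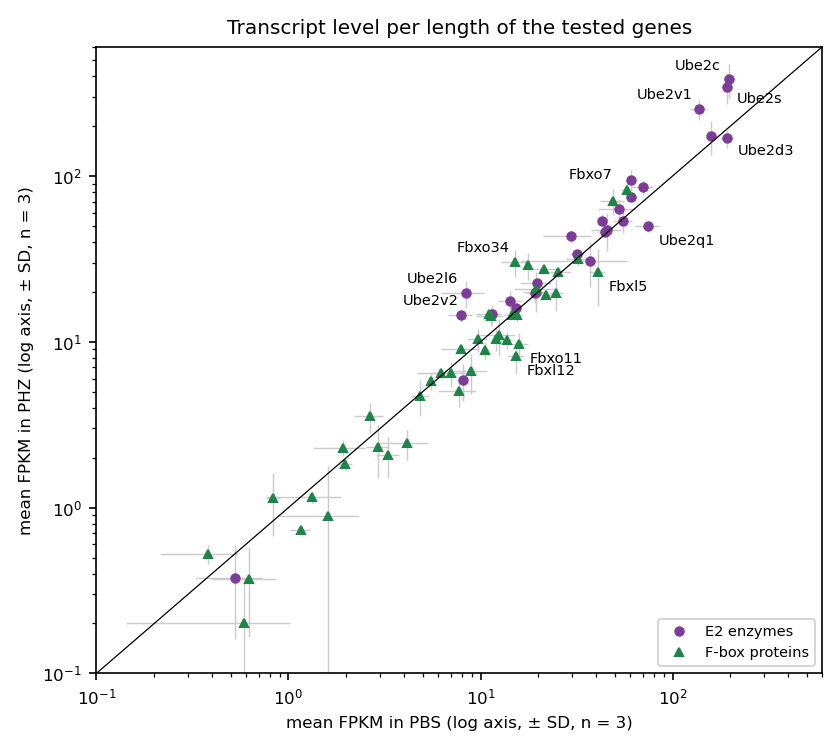
Mean FPKM per gene in PHZ (vertical) against PBS (horizontal) on log axes for the 69 tested genes, circles for E2 enzymes and triangles for F-box proteins, with bars of 1 SD over 3 rats and the line of equal level. Ube2c, Ube2s and Ube2v1 lie above the line at the top, while Fbxl12 and Fbxo11 lie below it.

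PHZ rats had more transcript of 5 E2 enzymes, Ube2c, Ube2s, Ube2v1, Ube2v2 and Ube2l6, each by 1.87- to 2.49-fold. Among F-box genes, Fbxo34 was 2.10-fold higher, while Fbxl12 was 1.86-fold and Fbxo11 1.65-fold lower. These 8 of 69 tested genes (11.6%) passed an edgeR adjusted p under 0.05, against 13.2% of all 13547 genes, so the share among the members was near the background. In direction, 6 were higher (8.99% of all genes were) and 2 lower (4.17% of all genes were). For the E2 enzymes the count was 5 higher and 0 lower of 27, with 12 at an unadjusted p under 0.05 (11 of them higher). For the F-box genes it was 1 higher and 2 lower of 42, with 13 at an unadjusted p under 0.05 (7 of them higher). Over all genes tested, 4626 of 13547 had an unadjusted p under 0.05, 2553 of them higher. DESeq2, which called 25.6% of all genes (14.1% higher and 11.5% lower), called 13 members, 9 higher and 4 lower. Limma on log2(FPKM + 1), which called 10.1% of all genes (6.73% higher and 3.33% lower), called 9 members, 8 higher and 1 lower. The median log2 fold change was 0.26 over the 27 E2 genes, -0.05 over the 42 F-box genes and -0.04 over all genes tested. The highest and lowest estimates are drawn in the plot of fold changes.

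**Figure D2:**
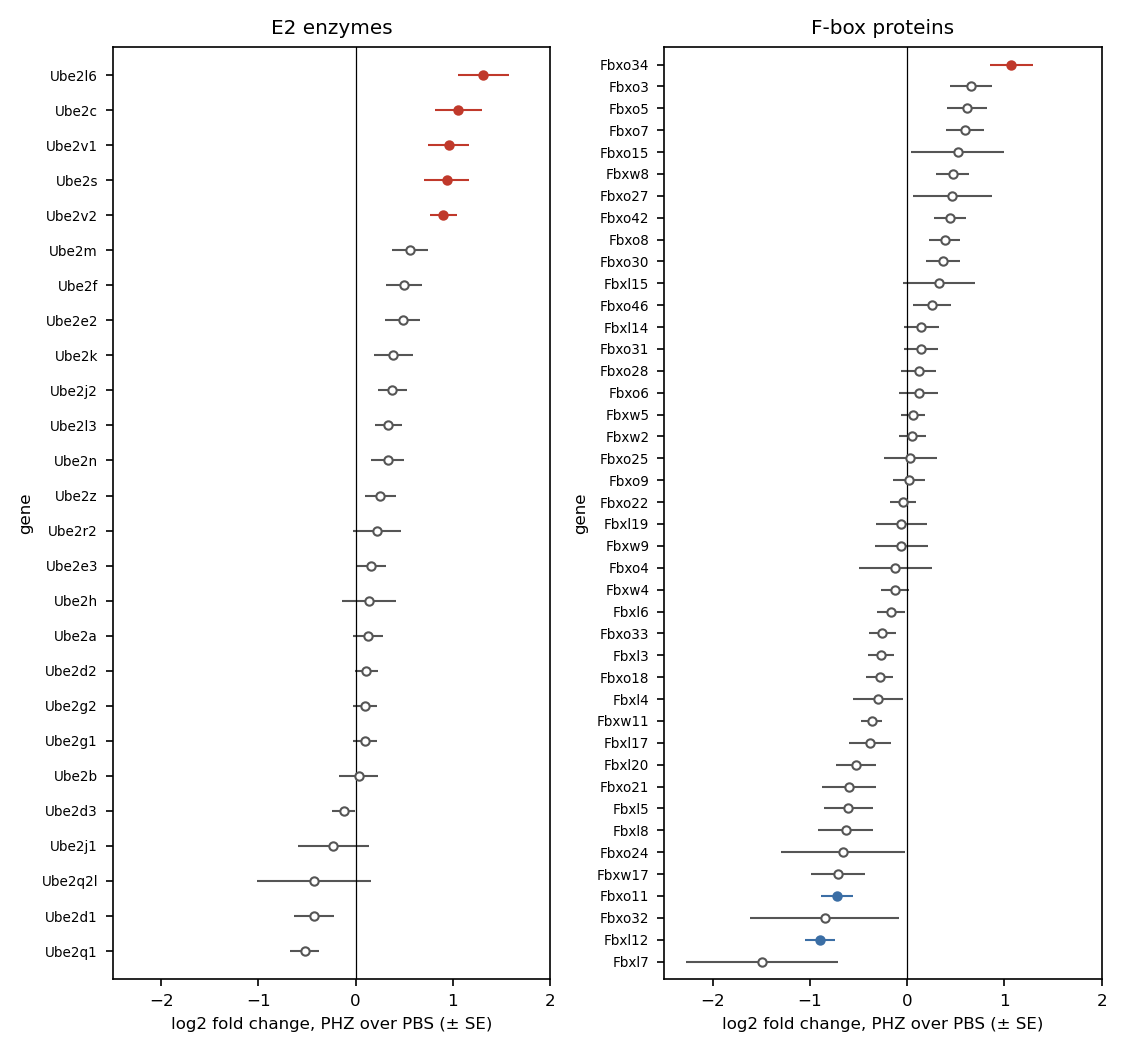
Log2 fold change of PHZ over PBS (horizontal, with bars of 1 SE) for the tested E2 genes, of which 1 is not drawn, and the 42 F-box genes tested, sorted by value, filled points being called at an edgeR adjusted p under 0.05. The 5 called E2 genes sit at 0.90 to 1.31, while F-box estimates spread on both sides of 0, with Fbxo34 called at 1.07 and Fbxo11 and Fbxl12 at -0.72 and -0.90.

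Of the 8 calls, 6 stood without PBS replicate 1 and 7 without PHZ replicate 1. No member was called without PBS replicate 2 (10 of 70 at an unadjusted p under 0.05), without PBS replicate 3 (12 of 70), without PHZ replicate 2 (15 of 70) or without PHZ replicate 3 (20 of 69). Calls were lost over all genes too: with these omissions edgeR called 0 of 13815, 0 of 13864, 266 of 13919 and 572 of 13955 genes. An unadjusted p under 0.05 was reached by 3325, 3291, 3577 and 4169 of these genes, a larger share than among the members each time. The estimates moved less, the log2 fold change running over all 15 alternatives from 0.80 to 0.99 for Ube2v2, from -1.01 to -0.78 for Fbxl12 and from 0.75 to 1.23 for Ube2c. Without each of those 4 libraries the members had smallest edgeR adjusted p values of 0.0969, 0.114, 0.0516 and 0.0501. Omitting the 3 libraries whose Y-linked transcripts contradict the label left 1 PBS rat against 2 PHZ rats, with the lone rat assumed to vary like the others, and edgeR then called 0 of 68 members (6 at an unadjusted p under 0.05) and 0 of 14131 genes (1480 at an unadjusted p under 0.05), and the log2 fold changes of the 8 genes kept their sign. The groups did not overlap in 28 of 69 members (40.6%), against 41.7% of all genes. Among these, 11 of 27 E2 genes were higher in every PHZ rat and 3 lower, and 7 of 42 F-box genes were higher and 7 lower, against 22.5% and 19.2% of all genes.

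**Figure D3:**
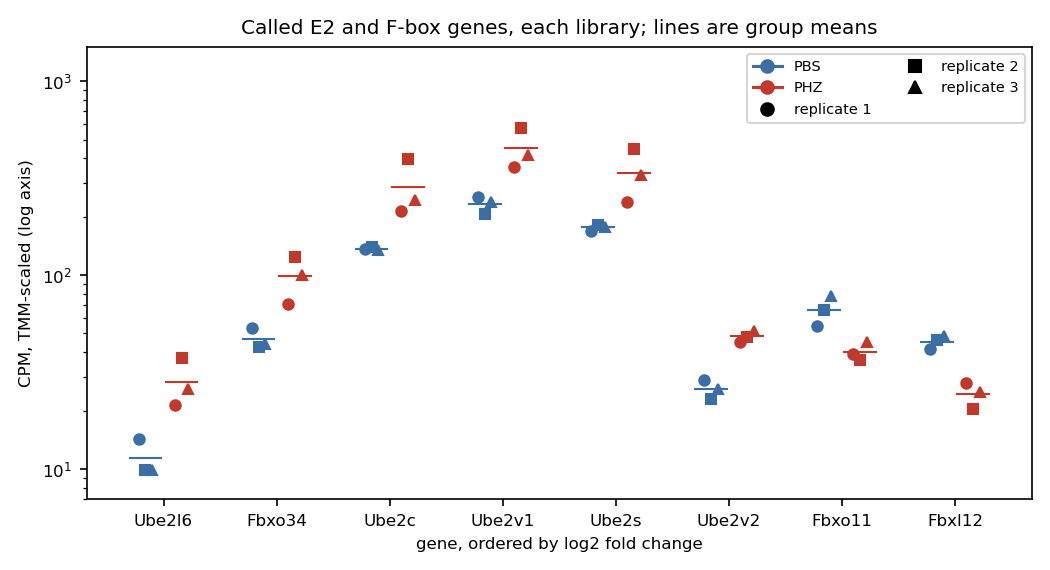
CPM per library (log axis) of the 8 called genes, PBS left and PHZ right for each gene, marker shape giving the replicate number and the line the group mean over 3 rats. The 3 PHZ values lie above the 3 PBS values for 6 genes and below them for Fbxo11 and Fbxl12, and PHZ replicate 1 is the lowest PHZ library in each of the 6 higher genes.

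Ube2c and Ube2s are the E2 enzymes of the APC/C, the first starting ubiquitin chains on its substrates and the other lengthening them. Ube2c (Entrez gene 296368) had 137, 139 and 135 CPM in PBS replicates 1 to 3 and 215, 395 and 244 CPM in the PHZ replicates. The PBS rats were close together and the PHZ rats were all higher and far more spread, with PHZ replicate 2 at the top. Ube2c rose 2.08-fold (log2 fold change 1.06 ± 0.24, SE; edgeR adjusted p = 0.0380), and without PHZ replicate 2 its log2 fold change was 0.75. Ube2s (Entrez gene 292588) had 169, 181 and 177 CPM in PBS and 237, 447 and 326 CPM in PHZ rats. It showed the same order of PHZ rats and rose 1.91-fold (log2 fold change 0.94 ± 0.23, SE; edgeR adjusted p = 0.0469). Without PBS replicate 1 neither was called, at edgeR adjusted p = 0.0658 for Ube2c and 0.0848 for Ube2s. Over 15 alternatives the adjusted p ran from 0.00104 to 0.504 for Ube2c and from 0.00342 to 0.556 for Ube2s. The ratio of Ube2s to Ube2c FPKM was 0.972 ± 0.0325 in PBS and 0.900 ± 0.0967 in PHZ (SD, n = 3; two-sided exact permutation p = 0.4).

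Many partners of these 2 enzymes were called too. Of 17 genes of the APC/C, its activators and checkpoint inhibitors, 8 rose, none fell and 9 were not called. Over all genes tested, 8.99% were called higher and 4.17% lower. Mad2l1, a spindle checkpoint protein, went from 29.7 ± 0.709 CPM to 56.2 ± 6.10 CPM (mean ± SD over 3 rats), a rise of 1.89-fold at an edgeR adjusted p of 0.0180. Cdc27, a subunit of the complex, rose 1.61-fold and Cdc20, its mitotic activator, 1.96-fold. Over the 17 genes the median was 0.54 on the log2 scale. Of them, 13 (76.5%) did not overlap between groups, against 41.7% of all genes. Fbxo5 encodes Emi1, an F-box protein known for holding the APC/C inactive before mitosis. It had 99.9, 83.4 and 83.0 CPM in PBS and 118, 177 and 111 CPM in PHZ rats, higher in each PHZ rat, and was not called (log2 fold change 0.61 ± 0.21, SE; edgeR adjusted p = 0.0912). Of 18 substrates and partners of the APC/C and SCF ligases 10 (55.6%) rose and none fell, with a median log2 fold change of 0.92. Those with the smallest p were Ccne1, cyclin E1 (3.11-fold), Ccnb1, cyclin B1 (2.55-fold), and the replication licensing gene Cdc6 (2.82-fold).

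Ube2v1 and Ube2v2 are E2 variants without a catalytic cysteine that pair with the active E2 Ube2n to build ubiquitin chains used in signalling and DNA repair. Ube2v1 (Entrez gene 296390) had 252, 206 and 239 CPM in PBS and 360, 575 and 415 CPM in PHZ rats. Every PHZ value lay above every PBS value, and the rise was 1.94-fold (log2 fold change 0.96 ± 0.21, SE; edgeR adjusted p = 0.0345). Ube2v2 (Entrez gene 287927), at a level per length far below that of Ube2v1, had 28.8, 22.9 and 25.7 CPM in PBS and 45.2, 48.1 and 51.3 CPM in PHZ rats. It was the steadiest of the called genes within PHZ, with a coefficient of variation of 6.32%, and rose 1.87-fold (log2 fold change 0.90 ± 0.14, SE; edgeR adjusted p = 0.0198), the smallest p among the members. Ube2n itself had 94.5, 72.4 and 67.5 CPM in PBS and 101, 108 and 84.9 CPM in PHZ rats. Its groups overlapped and it was not called (log2 fold change 0.33 ± 0.17, SE; edgeR adjusted p = 0.227). The FPKM ratio of Ube2v1 to Ube2n was 2.36, 2.52 and 3.15 in PBS and 3.16, 4.71 and 4.34 in PHZ rats, and that of Ube2v2 to Ube2n was 0.142, 0.143 and 0.174 in PBS and 0.209, 0.208 and 0.280 in PHZ rats. The ratios of the groups did not overlap, with a two-sided exact permutation p of 0.1 for each, the smallest that 3 rats against 3 allow (0.167 after adjustment over the 5 ratios computed). Ube2v1 and Ube2v2 encode closely related proteins, and how the authors' counting divided reads between similar copies is not given in the sources used here.

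Ube2l6 is the E2 enzyme of ISG15, a ubiquitin-like protein induced by interferon. With 14.2, 9.90 and 9.89 CPM in PBS and 21.4, 37.5 and 25.7 CPM in PHZ rats, Ube2l6 (Entrez gene 295704) had the highest fold change of the tested members, 2.49-fold (log2 fold change 1.31 ± 0.27, SE; edgeR adjusted p = 0.0297). PHZ replicate 2 again had the highest value and the groups did not overlap. Other genes of the ISG15 pathway, named after their values were seen, were not called. Isg15 itself averaged 10.6 ± 2.16 CPM over PBS and 8.27 ± 1.46 CPM over PHZ rats (SD, n = 3; edgeR adjusted p = 0.345), and Uba7, its E1 enzyme, 9.40 ± 1.57 and 6.39 ± 0.608 CPM (edgeR adjusted p = 0.131). Ube2l3, a relative of Ube2l6 that serves ligases of the HECT and RBR classes, had 199, 164 and 173 CPM in PBS and 229, 242 and 206 CPM in PHZ rats. It was higher in every PHZ rat and not called (log2 fold change 0.34 ± 0.14, SE; edgeR adjusted p = 0.138). The FPKM ratio of Ube2l6 to Ube2l3 was 0.117 ± 0.0142 in PBS and 0.232 ± 0.0576 in PHZ (SD, n = 3; two-sided exact permutation p = 0.1, 0.167 adjusted over 5 ratios).

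Promoter sequences are shown for 3 of the E2 genes that rose together, as the 250 bases before the RefSeq gene start in assembly GRCr8, written along the gene's strand. Ube2c and Ube2v2 had no entry. Sequences matched 69 of the 83 members by gene ID. Capitals mark matches to any of 6 motifs searched on both strands: E2F (TTTCCCGC or TTTGGCGC), the cell cycle element CHR (TTTGAA), the CCAAT box as spelt, the erythroid factor site for GATA proteins (AGATAA), an interferon element (GAAA repeated after any 2 bases) and the STAT site TTCNNNGAA.
Ube2s, chr1:78057409-78057658, plus strand: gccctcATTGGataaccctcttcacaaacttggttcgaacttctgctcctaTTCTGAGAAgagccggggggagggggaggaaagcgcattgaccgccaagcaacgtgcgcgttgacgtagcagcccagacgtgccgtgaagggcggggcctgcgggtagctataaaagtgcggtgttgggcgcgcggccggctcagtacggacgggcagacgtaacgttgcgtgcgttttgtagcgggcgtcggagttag
Ube2l6, chr3:90279455-90279704, plus strand: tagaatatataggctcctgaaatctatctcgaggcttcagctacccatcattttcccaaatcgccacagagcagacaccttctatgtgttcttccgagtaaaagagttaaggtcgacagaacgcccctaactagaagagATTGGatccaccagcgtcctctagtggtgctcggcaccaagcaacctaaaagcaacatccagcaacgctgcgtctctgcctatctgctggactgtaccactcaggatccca
Ube2v1, chr3:176759175-176759424, minus strand: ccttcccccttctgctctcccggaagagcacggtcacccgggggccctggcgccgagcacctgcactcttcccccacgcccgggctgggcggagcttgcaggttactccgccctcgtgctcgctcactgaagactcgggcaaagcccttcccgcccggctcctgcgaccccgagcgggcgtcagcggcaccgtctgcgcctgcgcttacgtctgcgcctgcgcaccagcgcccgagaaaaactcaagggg
The Ube2s sequence holds CCAAT on the other strand from -244 to -240 and a STAT match from -199 to -191, counted back from the gene start. The Ube2l6 sequence holds CCAAT on the other strand from -111 to -107 and no match to the interferon element, and the Ube2v1 sequence holds none of the 6. No matches overlapped in these 3. Among 27457 promoters of this length, 34.3% hold CCAAT, 7.52% the STAT site, 16.0% CHR, 10.0% GATA, 3.29% the interferon element and 1.26% an E2F match. Among 8676 promoters of tested genes the shares were 36.2% for CCAAT, 5.87% for STAT, 10.2% for CHR, 5.69% for GATA, 2.74% for the interferon element and 2.54% for E2F. Among the 69 members with a sequence the counts were 20 for CCAAT, 1 for STAT, 4 for CHR, 2 for GATA, 3 for the interferon element and 3 for E2F. These are not the 69 tested members: they include untested genes such as Ube2d4 and Fbxo48 and leave out Ube2c and Ube2v2. None of the sequences of Fbxl12, Fbxo11 and Fbxo34 held a match.

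Both E2 enzymes of NEDD8 had higher values in every PHZ rat and were not called. Ube2m, which conjugates NEDD8 to cullins and so activates the SCF ligases, had 172, 169 and 170 CPM in PBS and 207, 317 and 230 CPM in PHZ rats (log2 fold change 0.56 ± 0.18, SE; edgeR adjusted p = 0.0845). DESeq2 called it. Ube2f, the other NEDD8 enzyme, averaged 46.6 ± 8.82 CPM over PBS and 65.7 ± 10.2 CPM over PHZ rats (SD, n = 3; edgeR adjusted p = 0.113). Of 17 E1, ubiquitin and ubiquitin-like genes 2 rose and none fell, Sae1, a subunit of the SUMO E1 (from 40.2 ± 2.31 CPM up to 60.4 ± 3.20 CPM over 3 rats each, with SDs; edgeR adjusted p = 0.0268), and Nedd8 (1.42-fold; edgeR adjusted p = 0.0494). Of 20 genes of the SCF core and its regulators, Cops5, the subunit that removes NEDD8 from cullins, rose 1.85-fold. Cand1, the exchange factor for F-box proteins, rose 1.47-fold, and 18 were not called. The shares called in these lists were 11.8% (E1, ubiquitin and ubiquitin-like genes) and 10.0% (SCF core), against 13.2% of all genes.

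None of the 5 tested E2 members that serve the SCF and other cullin ligases was called, and none had an unadjusted p under 0.05. The SCF enzyme Cdc34, not a member by its symbol, was called higher (1.76-fold, edgeR adjusted p = 0.0258). Ube2d3 had 351, 323 and 333 CPM in PBS and 317, 314 and 295 CPM in PHZ rats, a small difference without overlap of the groups (log2 fold change -0.12 ± 0.12, SE; edgeR adjusted p = 0.502). Ube2d2 had 98.6 ± 4.31 and 106 ± 8.32 CPM (SD, n = 3). Ube2r2, a relative of the SCF enzyme Cdc34, had 192, 202 and 213 CPM in PBS and 154, 305 and 247 CPM in PHZ rats. Its PHZ values fell on both sides of the PBS values (log2 fold change 0.22 ± 0.25, SE; edgeR adjusted p = 0.565). Ube2h, the E2 of the GID/CTLH ligase and known to be abundant in erythroid cells, had 224, 165 and 189 CPM in PBS and 132, 270 and 235 CPM in PHZ rats. The PHZ rats again bracketed the PBS rats (log2 fold change 0.14 ± 0.28, SE; edgeR adjusted p = 0.752). None of 8 genes of the GID/CTLH ligase was called (3 at an unadjusted p under 0.05), with a median log2 fold change of 0.31. Ube2q1 was the E2 gene with the smallest p among those lower in PHZ, at 109, 144 and 138 CPM in PBS and 83.3, 92.5 and 96.4 CPM in PHZ rats. It was lower in every PHZ rat and not called (log2 fold change -0.53 ± 0.15, SE; edgeR adjusted p = 0.0599), but DESeq2 called it, as did edgeR without PBS replicate 1. Of 10 further E2 and F-box genes whose symbols do not begin with Ube2 or Fbx, 3 (30.0%) rose and none fell. Those that rose were Kdm2b, an F-box protein and histone demethylase (1.97-fold), Ccnf, the F-box protein cyclin F (2.22-fold), and the E2 gene Cdc34 (1.76-fold). Of all genes tested, 8.99% were called higher.

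Fbxo34 was the only called F-box gene that was higher in PHZ rats. Fbxo34 (Entrez gene 305830) had 53.4, 42.7 and 44.2 CPM in PBS and 70.8, 124 and 99.9 CPM in PHZ rats. The groups were well apart, and it rose 2.10-fold (log2 fold change 1.07 ± 0.22, SE; edgeR adjusted p = 0.0317). In the authors' deposited table, Fbxo34 and Ube2l6 were the only members marked as changed, both as up, with log2 ratios of 1.00 and 1.23 on mean FPKM. Of the called members left unmarked there, Ube2c had a ratio of 0.97, Ube2v1 0.88, Ube2v2 0.87 and Ube2s 0.85. Fbxl12 had -0.90 and Fbxo11 -0.71. The calls made here used no limit on fold change, so marks and calls are not alike. Fbxo7, an F-box protein that binds the proteasome regulator encoded by Psmf1, had 101, 98.7 and 98.6 CPM in PBS and 111, 183 and 156 CPM in PHZ rats. The PBS rats were nearly equal and the PHZ rats all higher, and it was not called (log2 fold change 0.60 ± 0.19, SE; edgeR adjusted p = 0.0828). DESeq2 called Fbxo7, as did edgeR when PHZ replicate 1 was omitted (adjusted p = 0.0271, the lowest of 15 alternatives that reached up to 0.640). Fbxo30 averaged 78.9 ± 13.8 CPM over PBS and 102 ± 11.8 CPM over PHZ rats (SD, n = 3; edgeR adjusted p = 0.179), and Fbxo9 had 69.9 ± 9.17 and 70.8 ± 10.4 CPM (edgeR adjusted p = 0.950).

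Fbxl12 and Fbxo11 fell. Fbxl12 (Entrez gene 313782) had 41.4, 46.4 and 48.4 CPM in PBS and 27.9, 20.4 and 24.9 CPM in PHZ rats. Every PHZ rat was lower, by 1.86-fold in the fit (log2 fold change -0.90 ± 0.16, SE; edgeR adjusted p = 0.0229). In the RefSeq table Fbxl12 overlaps Ubl5, which averaged 56.4 ± 5.07 CPM over PBS and 54.7 ± 8.26 CPM over PHZ rats (SD, n = 3; edgeR adjusted p = 0.861). Fbxo11 (Entrez gene 301674), an SCF receptor known for the turnover of the B cell factor BCL6, had 54.9, 66.3 and 77.9 CPM in PBS and 39.4, 36.5 and 45.0 CPM in PHZ rats. It fell in every PHZ rat, 1.65-fold in the fit (log2 fold change -0.72 ± 0.17, SE; edgeR adjusted p = 0.0392), but the call was lost when PHZ replicate 1 was omitted (edgeR adjusted p = 0.0724, within 0.00222 to 0.467 over 15 alternatives) and with limma on FPKM. Fbxo11 overlaps Msh6 in the same table, and of the genes called higher Ube2v1 overlaps LOC103691970. Uncalled members with an overlap include Ube2m (Chmp2a), Fbxo7 (Syn3), Ube2r2 (Nol6) and Ube2l3 (Ydjc). Since strand use in the counting is not given in the sources used here, reads of overlapping genes cannot be told apart.

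The leucine-rich Fbxl genes had lower estimates in PHZ in 10 of 12 tested, against 7102 of 13547 over all genes. Their median log2 fold change was -0.34, against -0.04 for all genes. Of the 12, 1 was called (8.33%), against 13.2% of all genes. Fbxl5, which senses iron and directs the breakdown of the iron regulator encoded by Ireb2, had 123, 99.2 and 126 CPM in PBS and 66.3, 56.3 and 106 CPM in PHZ rats. PHZ replicate 3 lay within the range of the PBS rats, and Fbxl5 was not called (log2 fold change -0.61 ± 0.25, SE; edgeR adjusted p = 0.145). Ireb2 was not called either, at 39.9 ± 3.69 and 50.6 ± 6.33 CPM (SD, n = 3; edgeR adjusted p = 0.146). Fbxl4, linked to mitochondrial turnover, had 7.23 ± 0.581 and 5.86 ± 1.53 CPM (edgeR adjusted p = 0.446). Fbxl7 had the lowest log2 fold change of the tested members, -1.49 ± 0.79 (SE; edgeR adjusted p = 0.225), at 0.332 to 3.52 CPM with overlapping groups. Of the 23 Fbxo genes tested, 15 had higher and 8 lower estimates, where 6445 of all 13547 genes had higher ones. None of the 7 Fbxw genes was called (3 at an unadjusted p under 0.05). Fbxw11, a beta-TrCP receptor of signalling proteins, had 56.9, 52.8 and 54.0 CPM in PBS and 43.8, 42.0 and 41.5 CPM in PHZ rats, the tightest replicates of the tested members, and was not called by edgeR (log2 fold change -0.36 ± 0.11, SE; adjusted p = 0.0658) but was called by DESeq2.

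**Figure D4:**
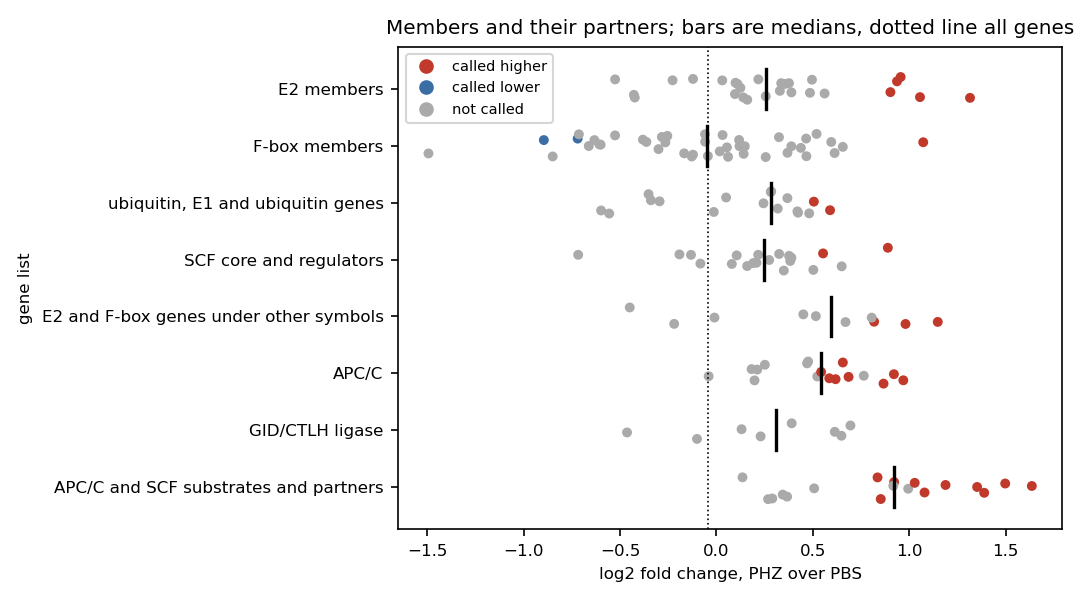
Log2 fold change of PHZ over PBS (horizontal) for each tested E2 and F-box gene and for the genes of 6 lists of their partners (rows), coloured by call, with the list medians as bars and the median of all genes as a dotted line. The bars lie at 0.26 for the E2 genes, -0.05 for the F-box genes, 0.54 for the APC/C and 0.92 for the substrates and partners.

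Summed over genes, E2 transcripts came to 2729, 2488 and 2580 CPM in PBS and 2848, 4100 and 3267 CPM in PHZ rats. The groups did not overlap, nor did they without Ube2v1 (2282 to 2477 CPM against 2488 to 3525 CPM). Both sums include genes called higher, 5 in the first and 4 in the second. Ube2c and Ube2s alone summed to 306 to 321 CPM in PBS and 453 to 842 CPM in PHZ rats. E2 members serving the SCF and other cullins, none of them called, summed to 663 to 695 CPM and 616 to 777 CPM, with overlap. The sums therefore do not show a rise shared by all E2 genes. F-box transcripts summed to 1432 to 1507 CPM in PBS and 1384 to 1704 CPM in PHZ rats, with overlap. PHZ replicate 2 had the highest PHZ value in 20 of 27 E2 genes and PHZ replicate 1 the lowest in 18 of 27, against 35.1% of all genes tested for each. For all genes called higher, PHZ replicate 2 had the highest value in 69.5%, while the lowest was PHZ replicate 1 in 43.3% and PHZ replicate 3 in 47.9%. The alpha globin gene Hba1 followed the order most frequent in the E2 genes, with 53103, 169996 and 108347 CPM in PHZ replicates 1 to 3. The part of this difference between libraries in the E2 values was not tested.

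Marker genes of some cell types moved with treatment, while over all genes tested 8.99% were called higher and 4.17% lower. Of 7 erythroid markers 4 rose and none fell, with summed levels of 68027 to 152597 CPM in PBS and 58198 to 178385 CPM in PHZ, of which Hba1 made up most. Of 7 B lineage markers 5 fell, and their sum was 532 to 655 CPM in PBS and 136 to 213 CPM in PHZ. Of 8 T and NK markers 5 fell, with sums of 315 to 517 CPM and 202 to 235 CPM. Cd4 and Nkg7, which overlapped between groups and were not called, made up most of these sums. Cd4 alone had 457 CPM in PBS replicate 1, so the sums do not show the fall of the 5 called markers. None of the 6 neutrophil markers tested was called (3 at an unadjusted p under 0.05), though all 6 estimates were lower in PHZ, with sums of 10799.5 to 20508 CPM in PBS and 4560.5 to 9639 CPM in PHZ. All 4 mast cell and basophil markers had lower estimates and were not called (1 at an unadjusted p under 0.05), and of 4 stromal and endothelial markers tested Pecam1 fell. No call was made among 5 monocyte and macrophage markers (median log2 fold change -0.20) or 3 megakaryocyte markers (median -0.56). None of these markers was at 0 in all libraries. In bulk samples, fewer cells of a type and less RNA per cell cannot be told apart, and the part of these cell types in the changes of Fbxl12, Fbxo11 and the E2 genes was not tested.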

How the data were processed

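RNA of c-kit+ marrow cells was sequenced in 6 rats. Per the submitters' processing notes, HISAT, GATK and RSEM were used with the build rn6. Their roles and settings were not given in the sources used here. Files deposited by the authors hold, per their headers, an expected count (an estimated count that need not be whole) and an FPKM value per gene and library. Genes not listed in a library were set to 0. The authors' deposited comparison holds mean FPKM per group, a log2 ratio and a score named Probability, which was not used.

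Expected counts were rounded and tested with edgeR 4.0.16 in R 4.3.3 by the quasi-likelihood test (robust glmQLFit) after filterByExpr and TMM scaling. The model held treatment alone, p values were adjusted by Benjamini-Hochberg over 13547 genes, and a gene was called when its adjusted p was under 0.05. With 4 residual degrees of freedom, the biological coefficient of variation was 35.2%. CPM is the count scaled to the library total after TMM. Each SE is the size of the log2 fold change divided by √F. The fit was tested on simulated data. Other scalings and filters, DESeq2 1.42.0, limma 3.58.1 on log2(FPKM + 1), omitted libraries, a replicate block and sex were tried. Library totals were 13196249 to 19492793 counts, and 3 counts, the limit that a count of 0 allows, correspond to 0.154 to 0.227 CPM, for counting error only. Replicates differed by more than sampling noise (chi-square per degree of freedom 50.7 to 188).

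Members and gene lists were chosen with earlier results of these data known. Named members were all called ones, the 5 with the largest absolute log2 fold change, the 5 of highest mean FPKM, the 3 uncalled ones with the smallest p and a set list of known members, of which 1 is not reported here, and from each partner list the 3 called genes with the smallest p. Others were named after their values were seen. Symbols absent from the authors' table were looked up in a RefSeq gene table (GRCr8).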

Additional observations from a re-analysis of the deposited data

How the results depend on the processing

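With RLE or upper-quartile scaling, without a filter on low counts and with at least 1 CPM in 3 libraries, the counts of members called stayed within 1.5 times those reported, and Ube2s was the only call lost (under both scalings). Upper-quartile scaling moved the F-box median log2 fold change from -0.05 to -0.11. DESeq2 called 9 members higher and 4 lower (6 E2 higher and 1 lower, 3 F-box higher and 3 lower). Limma on log2(FPKM + 1) called 8 higher and 1 lower, of which 2 higher and 1 lower were F-box genes. With sex as labelled as a covariate, 2 members were higher (both E2, and 0 F-box genes) and 1 F-box gene lower, and 928 of 13547 genes were called, against 1783. Without the 3 libraries against their sex label, 0 members were called in either direction, in E2 and in F-box genes. Leaving out each library in turn gave 0 to 8 members higher and 0 to 3 lower, 0 to 5 E2 genes higher and 0 to 1 lower, and 0 to 3 F-box genes higher and 0 to 2 lower, with an E2 median of 0.18 to 0.33 and an F-box median of -0.10 to 0.029. The causes were not tested. The 8 called genes kept their direction in all 15 alternatives, which is no sign of stability where the groups do not overlap, and were called in 5 (Ube2s), 6 (Fbxo11), 8 (Ube2c, Ube2l6, Ube2v1, Fbxo34) or 9 (Ube2v2, Fbxl12) of them.

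Same-numbered rats share only a number in the labels, and their deviations from the group means correlated at 0.213, 0.0573 and 0.00452. With the replicate block, 0 members were called higher and 0 lower, in E2 and in F-box genes, and 0 of 13547 genes were called. An unadjusted p under 0.05 was reached by 21 of 69 members and by 4641 of 13547 genes. Depth limits the low members: the 14 not tested had 1 to 41 counts over all 6 libraries.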

Other observations

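Ube2j1, an E2 enzyme of the endoplasmic reticulum that takes part in the removal of misfolded proteins, had the largest coefficient of variation among PBS rats of the 27 E2 genes tested, 52.8%. It had 72.6 CPM in PBS replicate 1 against 32.8 and 30.1 CPM in the other PBS rats, and 33.8 to 47.5 CPM in PHZ rats. PBS replicate 1 was also the PBS library with the highest value in 18 of 27 E2 genes, against 43.2% of all genes tested. Its 5 monocyte and macrophage markers summed to 1518 CPM, against 677 and 676 CPM in PBS replicates 2 and 3 and 579 to 878 CPM in PHZ rats.

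PBS rats were closer to each other than PHZ rats in most genes, and the shares among the members were near that of all genes. The SD of log2 CPM was larger in PHZ than in PBS in 18 of 27 E2 genes (66.7%) and in 23 of 42 F-box genes (54.8%), against 58.7% of all genes tested. The tested members with the lowest coefficients of variation in PBS were Ube2m (0.877% in PBS and 23.2% in PHZ), Fbxo7 (1.37% and 24.2%) and Ube2c (1.70% and 33.9%).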
